A study of Sus scrofa with 12 samples.

Results

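The 10 genes described here are respiratory subunits encoded by the mitochondrial genome: ND1, ND2, ND4 and ND5 of complex I, CYTB of complex III, COX1, COX2 and COX3 of complex IV, and ATP6 and ATP8 of complex V. They were taken by name from the per-gene count tables and are 10 of the 25880 genes counted and 10 of the 13 protein genes of the mitochondrial genome. The other 3, ND3, ND4L and ND6, all subunits of complex I, appear only beside their neighbours. RNA of the longissimus dorsi, the long back muscle, was sequenced from 12 Iberian pigs, 1 library per pig. All pigs were castrated males fattened outdoors on acorns and grass and slaughtered at over a year of age, so breed, sex and feeding were common to both groups. The pigs were chosen at either end of the estimated breeding value for muscle myoglobin (MB), and no other treatment separates the groups in the labels. The 6 High MB pigs held 2.48 ± 0.0657 mg/g of myoglobin in the muscle (SD, n = 6) and the 6 Low MB pigs 1.39 ± 0.147 mg/g (SD, n = 6). The p-values below measure the spread between these pigs.

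Mitochondria keep a small circular genome of their own, which encodes a core set of proteins of the respiratory chain, along with the ribosomal and transfer RNAs needed to translate them. The genes lie head to tail and are transcribed as long RNAs from each strand, which are then cut, mostly at the transfer RNAs, into mature messengers. Complexes I, III and IV pass electrons on to oxygen and pump protons, and complex V, the ATP synthase, uses the proton gradient to make ATP. All other subunits of these complexes are encoded in the nucleus, and oxidative muscle, which is also the muscle rich in myoglobin, holds many mitochondria.

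All 10 genes lie on the + strand of the mitochondrial sequence of Sscrofa11.1 (RefSeq, 16613 bases) and have no intron. In their order along it they are ND1 (MT:3922-4876), ND2 (MT:5087-6128), COX1 (MT:6511-8055), COX2 (MT:8203-8890), ATP8 (MT:8959-9162), ATP6 (MT:9120-9800), COX3 (MT:9800-10583), ND4 (MT:11359-12736), ND5 (MT:12935-14755) and CYTB (MT:15342-16481). ND6 (MT:14739-15266) is the one protein gene on the − strand and lies between ND5 and CYTB. Neighbours share bases at 3 places that bear on the counts below: ATP8 shares 43 of its 204 bases with ATP6, ND4L shares 7 bases with ND4, and ND5 shares 17 bases with ND6. The sequences of these joints are given because a read across one of them touches both genes. In the lines below, read 5′ to 3′ on the + strand, the capitals mark the bases that both genes share. The first line is the whole ATP8 gene, the second is MT:11332-11392 and the third is MT:14717-14777.
ATP8: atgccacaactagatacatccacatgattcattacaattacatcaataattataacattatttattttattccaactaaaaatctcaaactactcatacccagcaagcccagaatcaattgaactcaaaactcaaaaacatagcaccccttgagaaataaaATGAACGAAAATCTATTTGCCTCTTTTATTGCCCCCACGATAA
ND4L/ND4: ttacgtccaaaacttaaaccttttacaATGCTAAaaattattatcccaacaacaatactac
ND5/ND6: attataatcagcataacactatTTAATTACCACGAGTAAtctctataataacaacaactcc

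The study also designed a pair of qPCR primers on ATP6, and both matched the mitochondrial sequence with 0 mismatches. Their product is MT:9142-9370, 229 bases, which begins inside the stretch shared with ATP8. The reverse primer is given 5′ to 3′ as ordered, that is, on the − strand.
ATP6F: cttttattgcccccacgat
ATP6R: atgtttgttgagccgatgaata

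Gene counts summed to between 38914271 and 91318334 per library. The total reads of the study split the libraries into 5 deep ones (High MB 4 and 6, Low MB 1, 5 and 6) and 7 standard ones, and the group differences of the members and of the nuclear subunits are therefore also given within each depth class. Of 10 skeletal muscle markers, 4 were matched to a gene identifier and all 4 were high: ACTA1, the skeletal muscle actin, had the highest mean percent of gene counts of all genes, and CKM, the muscle creatine kinase, ranked 5, while DES and TNNT3 ranked 23 and 15. The myoglobin gene itself, TTN and 4 myosin heavy chain genes had no single match in the name table and are not analysed here. Markers of other cell types were present at low levels. At an unadjusted p under 0.05, which 8.46% of all genes tested had, 2 of 5 adipocyte, 3 of 4 macrophage, 2 of 4 fibroblast and 0 of 3 endothelial markers were higher in the High MB group, and 0 of them passed the adjusted test. Adipocyte markers summed to 0.00567% to 0.0239% of gene counts in the High MB group and to 0.00332% to 0.0177% in the Low MB group, macrophage markers to 0.00285% to 0.0103% and 0.00170% to 0.00375%, fibroblast markers to 0.0482% to 0.0917% and 0.0236% to 0.0664%, and endothelial markers to 0.00944% to 0.0166% and 0.00582% to 0.0137%. The 4 muscle markers summed to 4.58% to 8.70% and 6.43% to 10.2%. The part of these markers in the values of the mitochondrial genes was not tested. In bulk muscle, fewer cells or fibres of a type and less RNA per cell cannot be told apart.

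Of the 10 genes, 9 were among the genes with the most counts in the muscle, ranked here by the mean percent of gene counts with each library weighted equally and with no division by length. COX1, which holds the catalytic centre of cytochrome c oxidase, had rank 2 of all 25880 genes, between ACTA1 and the glycolytic enzymes ALDOA (rank 3) and GAPDH (rank 4). COX3, another core subunit of complex IV, ranked 7. ATP6, which forms part of the proton channel of the ATP synthase, ranked 12, COX2 ranked 17 and CYTB, the cytochrome b of complex III, ranked 21. The complex I genes followed at ranks 36 (ND4), 42 (ND1), 45 (ND2) and 46 (ND5). ATP8, the short partner of ATP6, stood apart at rank 2792. In every pig 9 of the 10 genes had more than 10000 counts, and ATP8 had between 1038 and 4119.

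Together the 10 genes took between 5.86% and 11.3% of all gene counts. In the High MB pigs the share was 9.54%, 8.07%, 10.7%, 7.69%, 11.3% and 6.13% (pigs 1 to 6), a mean of 8.90% ± 1.96 (SD, n = 6). In the Low MB pigs it was 8.16%, 6.62%, 9.08%, 5.86%, 8.51% and 7.98%, a mean of 7.70% ± 1.22 (SD, n = 6). The groups overlapped over most of their range: the lowest High MB pig (6.13%) lay below 5 of the 6 Low MB pigs, and 3 High MB pigs lay above all Low MB pigs. The difference of the means, 1.20 percentage points, was smaller than the SD of either group. Without High MB 5 it was 0.724 percentage points. Of the summed per-transcript counts the same genes took 24.7% ± 4.32 and 22.4% ± 2.96 (High MB and Low MB, SD, n = 6 each). Of all uniquely aligned reads, including those given no gene or more than 1, they took 4.22% ± 0.929 and 3.66% ± 0.575. The counts of the 10 genes are the same in each case, so these shares differ by the denominator. Counting error of the share of gene counts was negligible beside the spread between pigs. Its 95% Wilson interval was at most 0.00982 percentage points to either side in any pig. Intervals of this kind cover counting error only.

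The share stood in opposite order in the 2 depth classes. Among the standard libraries it was 9.90% ± 1.42 in the High MB group (SD, n = 4) and 7.19% ± 1.68 in the Low MB group (SD, n = 3), a difference of 2.71 percentage points. Among the deep libraries it was 6.91% ± 1.10 in the High MB group (SD, n = 2) and 8.22% ± 0.270 in the Low MB group (SD, n = 3), a difference of -1.30 percentage points. The 2 deep High MB libraries had the lowest shares of their group, and the deep Low MB libraries were all above 2 of the 3 standard ones. The share is a sum over chosen genes and was not tested; the single genes are tested against depth class below.

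**Figure D1:**
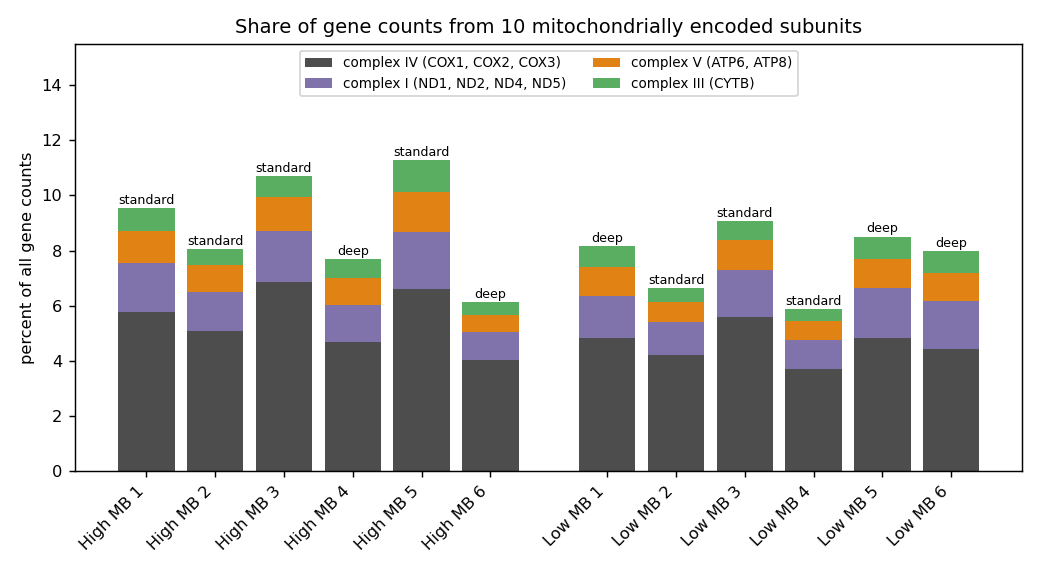
Percent of all gene counts taken by the 10 mitochondrially encoded genes in each of the 12 libraries (x axis, pigs by group), stacked by respiratory complex, with the depth class of the library above each bar. Totals run from 5.86% in Low MB 4 to 11.3% in High MB 5, the complex IV genes are the largest block in all 12 bars, and both deep High MB libraries have the lowest bars of their group.

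By complex, the 3 complex IV genes gave most of the counts. They took 5.50% ± 1.11 of all gene counts in the High MB group (SD, n = 6, from 4.02% to 6.84%) and 4.59% ± 0.647 in the Low MB group (SD, n = 6, from 3.69% to 5.59%). The 4 complex I genes took 1.59% ± 0.390 and 1.51% ± 0.315, ATP6 with ATP8 took 1.06% ± 0.291 and 0.943% ± 0.176, and CYTB took 0.756% ± 0.231 and 0.657% ± 0.163 (High MB and Low MB, SD, n = 6 each). The mean was higher in the High MB group for each of the 4 complexes over all 12 libraries and in the standard libraries, lower for each in the deep libraries, and the ranges overlapped. For complex IV the difference was 1.58 percentage points in the standard libraries and -0.345 in the deep ones, and for complex I 0.466 and -0.504. Without High MB 5 the complex I difference was -0.0154 percentage points, that of complex III 0.0200, of complex IV 0.684 and of complex V 0.0348. As a percent of the summed counts of the 10 genes, complex IV held 62.0% ± 2.59 and 59.9% ± 3.25, complex I 17.8% ± 0.722 and 19.5% ± 1.66, complex V 11.8% ± 1.13 and 12.2% ± 0.771, and complex III 8.42% ± 1.12 and 8.44% ± 1.16. The difference for complex IV, 2.15 percentage points, was below both SDs, and it was 6.07 in the deep libraries and -1.18 in the standard ones. For complex I the difference was -1.69 percentage points, with 0 of the 6 High MB pigs above the Low MB median of 18.8% and overlapping ranges of 16.7% to 18.7% and 17.9% to 21.7%. Nearly all of it lay in the deep libraries, with -3.45 percentage points (n = 2 and 3), against -0.265 in the standard ones (n = 4 and 3). Complex V gave -1.64 (deep) and 0.476 (standard), and complex III -0.976 and 0.969.

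Levels of different genes were compared per length, as CPM (the count of a gene relative to all counts of its library, scaled for composition with TMM) divided by the length of the gene in kilobases. COX3 and COX1 stood at the top with 18234 ± 4503 and 17629 ± 3614 CPM per kilobase (SD, n = 12). ATP6 followed with 14714 ± 3738 and COX2 with 13189 ± 3110 CPM per kilobase. The order of COX3 and COX1 was not settled by these libraries, since COX3 was above COX1 in 7 of the 12 pigs. COX1 was above ATP6 in 11 of the 12 pigs and ATP6 above COX2 in 11 of the 12, with ratios of the means of 1.20 and 1.12. Within a library the ratio of COX1 to ATP6 ran from 0.930 to 1.76, and that of ATP6 to COX2 from 0.808 to 1.39. A clear step came next: COX2 was above CYTB in 12 of 12 pigs, by 1.56 to 2.61 times, with CYTB at 6240 ± 1852 CPM per kilobase.

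The complex I genes had the lower levels per length. CYTB was above ND1 in 12 of 12 pigs, with ND1 at 3992 ± 1092 CPM per kilobase (SD, n = 12). The order of ND2, at 3528 ± 1279, and ND4, at 3352 ± 757, was not settled, since ND2 was the higher in 8 pigs and ND4 in the rest. ND5, the gene of the largest of these proteins, had 1915 ± 607 CPM per kilobase, the lowest of the 9 abundant members. ATP8 had 203 ± 80.6 CPM per kilobase and was below ND5 in 12 of 12 pigs, by 3.04 to 14.8 times. The complex IV genes and ATP6 thus stood at the upper end and ND5 at the lower end of the 9 abundant members, with ATP8 far below them.

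**Figure D2:**
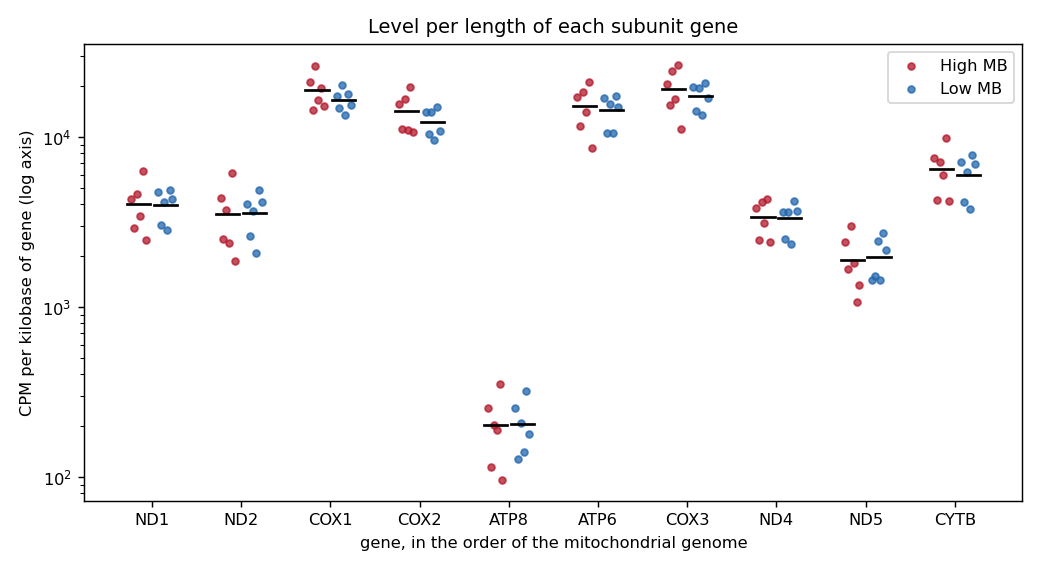
CPM per kilobase of gene (y axis, log scale) of the 10 genes in genome order (x axis), with 1 point per pig, High MB in red and Low MB in blue, and a black bar at the mean of each group of 6. COX1, COX2, ATP6 and COX3 lie highest, ATP8 lies far below all others at a mean of 203 CPM per kilobase, and the points of the groups overlap for each of the 10 genes.

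ATP8 and ATP6 are translated from 1 messenger, yet the ATP6 count was between 181 and 342 times the ATP8 count (median 250, 12 pigs). Several measured features of ATP8 set it apart from the other members. It is the shortest, at 204 bases, with sequenced reads of 150 bases, and in the joint printed above its last 43 bases are also the first of ATP6. In addition, 196 of its 204 bases (96.1%) had a near-identical copy, at 95% identity or more, in the nuclear part of the same assembly. Reads with several alignments stayed out of the counts. With the unshared length of 161 bases in place of 204, ATP8 had 257 CPM per kilobase and was still last. The part of these features in the low ATP8 count was not tested, and less ATP8 RNA and fewer ATP8 reads counted cannot be told apart here.

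Nuclear copies were spread unevenly over the other members. At the same limit they covered 62.8% of COX2, 43.7% of COX1 (one of 675 bases at 99.2% identity), 43.5% of ND1 and 34.5% of ND2. They covered 5.14% of ATP6 and 0.714% of ND5, and 0 bases of COX3, ND4 or CYTB. Mean levels were 13189 CPM per kilobase for COX2, 17629 for COX1, 3992 for ND1, 3528 for ND2 and 203 for ATP8. They were 14714 for ATP6 and 1915 for ND5, and 18234 for COX3, 3352 for ND4 and 6240 for CYTB. The part of nuclear copies in the levels was not tested.

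The balance between the 10 genes within a library was steadier for some genes than for others. As a percent of the summed counts of the 10 genes, COX3 was between 14.4% and 18.9% over all 12 pigs, with a coefficient of variation of 6.33%, and ND4 between 5.11% and 6.29%, with one of 6.33%. COX2 was between 9.28% and 12.3%, ATP6 between 9.75% and 13.1% and COX1 between 27.2% and 39.0%, with coefficients of 7.76%, 7.88% and 10.1%. ND1 was between 3.92% and 5.43%, and CYTB between 7.20% and 10.2%. ND2 varied more, from 3.24% to 5.80% with a coefficient of 20.1%, and ATP8 from 0.0324% to 0.0686% with one of 23.9%. The lowest values of ND1, ND2, ATP8, ATP6 and COX3 were all in High MB 6, the deepest library, which also had the highest percent of COX1 (39.0%) and the lowest share of the 10 genes in its group.

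ND5 had a coefficient of variation of 22.7%, close to those of ND2 and ATP8, but it came mostly from 2 pigs. This subunit belongs to the proton-pumping arm of complex I and is encoded last before the − strand gene ND6. In the High MB group ND5 made up 4.45%, 4.59%, 4.87%, 4.35%, 1.77% and 4.04% of the counts of the 10 genes (pigs 1 to 6). In the Low MB group it made up 2.98%, 4.26%, 4.92%, 4.39%, 5.16% and 4.94%. High MB 5 and Low MB 1 thus lay below all other pigs, 1 in each group, while the other 10 pigs lay between 4.04% and 5.16%. These 2 pigs were picked out after their values were seen.

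Of the 13 protein genes, ND5 and the neighbouring ND6 were the 2 whose percent was lower in both of these pigs than in all other 10. ND1, ATP6 and ND3 were higher in both than in all other 10, by smaller steps: ND1 at 5.43% and 5.12% against at most 5.11%, ATP6 at 12.9% and 13.1% against at most 12.7%, and ND3 at 1.45% and 1.30% against at most 1.25%. The ND5 count divided by the ND4 count of the same library was 0.327 in High MB 5 and 0.523 in Low MB 1, against 0.735 to 0.946 in the other 10 pigs. ND6, encoded on the opposite strand, made up 0.565% and 1.07% of the counts of the 10 genes in the same pigs, against 1.38% to 2.19% in the others. The ratio of ND6 to ND5, 0.319 and 0.359, lay within the range of the other 10 pigs, 0.305 to 0.445, so the 2 genes were low together. CYTB, on the far side of ND6, was not low: it made up 10.2% in High MB 5, the highest value of all pigs, and 9.17% in Low MB 1. ND4, on the near side, made up 5.42% and 5.70%, also within the range of the others.

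The low percents rested on large counts, 79774 for ND5 in High MB 5 and 178326 in Low MB 1. High MB 5 is a standard library and Low MB 1 a deep one. Without these 2 pigs the coefficient of variation of the ND5 percent went from 22.7% to 7.88%, and that of ND6 from 27.2% to 13.6%. Those of ND2 and ATP8 were 19.0% and 23.2% without them. Only 17 bases are shared by ND5 and ND6, the stretch in capitals in the joint printed above, and nuclear copies cover 0.714% and 14.2% of them. The kit used does not mark strand, so reads of ND5 and of RNA opposite to it cannot be told apart. Reads were counted after alignment to 1 reference sequence, so less RNA of these genes and fewer of their reads aligned cannot be told apart in these counts, and the cause of the low values was not tested.

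**Figure D3:**
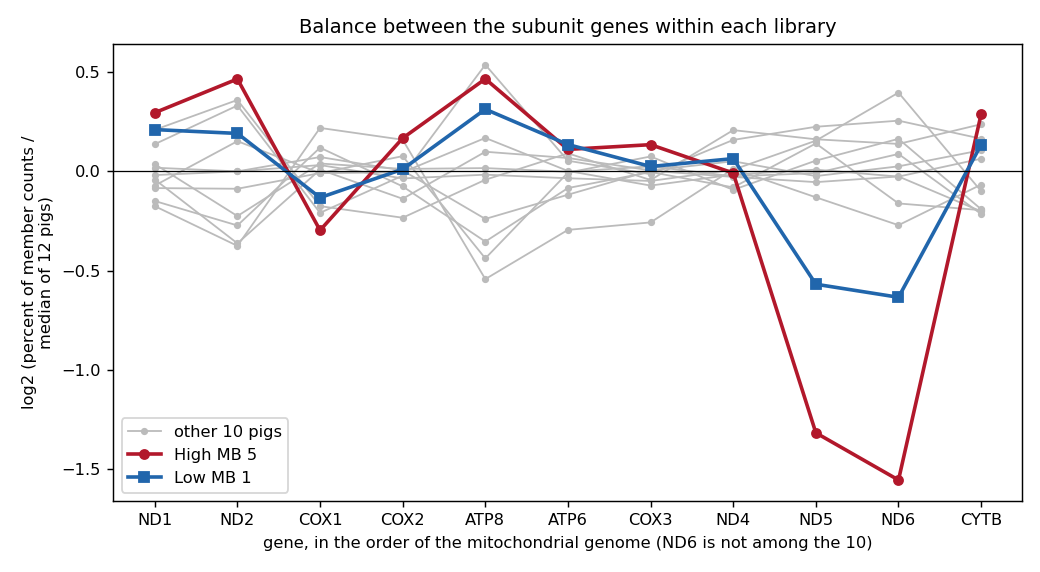
Percent of the summed counts of the 10 genes, as the log2 ratio to the median of the 12 pigs (y axis), for each gene in genome order with ND6 added (x axis), with 1 line per pig, High MB 5 in red, Low MB 1 in blue and the other 10 pigs in grey. Both coloured lines lie below all grey lines at ND5 and ND6, where they hold 1.77% and 2.98% (ND5) and 0.565% and 1.07% (ND6), and they lie below the median also at COX1 (27.2% and 30.5%, where Low MB 1 is within the grey lines) but not at CYTB (10.2% and 9.17%).

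The levels of the members moved together from pig to pig, apart from ND5. Over the 12 pigs, Pearson's r between the log2 CPM of 2 members was between 0.605 and 0.979 for the 36 pairs without ND5, with a median of 0.905. For the 9 pairs with ND5 it was between 0.211 and 0.557, with a median of 0.275. Without High MB 5 and Low MB 1 the 9 pairs with ND5 had r between 0.843 and 0.970. These values describe 12 libraries in which all genes share the same depth and scaling, and they carry no test.

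The question the groups address is whether muscle of high and low genetic value for myoglobin differs in the expression of these genes. No member was called: 0 of 10 passed edgeR's quasi-likelihood test (Benjamini-Hochberg adjusted p under 0.10 and an absolute log2 fold change, log2 FC, over 0.58), against 0% of the 13373 genes tested. DESeq2, run as an alternative, also called 0 of 10, beside 0.151% of the 19158 genes it tested. At an unadjusted edgeR p under 0.05 the members again gave 0 of 10, beside 8.46% of all genes tested. When the log2 CPM of single genes was permuted exactly over all splits into 6 and 6 pigs (two-sided, smallest possible p 0.00216), 0 of 10 had a p under 0.05, beside 9.09% of all genes. The log2 FC of High MB over Low MB was positive for 7 members and negative for ND2, ATP8 and ND5, of which ND2 and ATP8 turned positive (0.021 and 0.022) with upper quartile scaling, with a median of 0.05 beside a median of -0.02 over all genes tested.

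Over all 12 libraries the complex IV genes had the largest log2 FC, but in the standard libraries alone the largest were those of CYTB (0.62) and ND2 (0.60), and with the depth class as a covariate CYTB (0.16) was above COX3 (0.09). COX1 ranged from 22121 to 40356 CPM over the High MB pigs (median 27763) and from 20626 to 31037 over the Low MB pigs (median 25272). Its log2 FC was 0.19 (SE 0.18, edgeR adjusted p = 0.797), with an exact permutation p of 0.318. COX2, which receives the electrons from cytochrome c, ranged from 7342 to 13497 CPM over the High MB pigs (median 9166) and from 6598 to 10275 over the Low MB pigs (median 8535). Its log2 FC was 0.20 (SE 0.19, exact permutation p = 0.374). COX3 had 8672 to 20806 CPM (median 14581) and 10499 to 16285 CPM (median 14216), with a log2 FC of 0.13 (SE 0.21, edgeR adjusted p = 0.886). For each of these genes the groups overlapped, and for COX3 the lowest pig of all was a High MB pig.

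ATP6, the member chosen for qPCR in the study, ranged from 5870 to 14219 CPM over the High MB pigs (median 10624) and from 7149 to 11858 over the Low MB pigs (median 10380). Its log2 FC was 0.08 (SE 0.22, edgeR adjusted p = 0.943), and the exact permutation p was 0.829. ATP8 was between 19.5 and 71.9 CPM (median 39.7) and between 26.0 and 65.5 CPM (median 39.5), with a log2 FC of -0.03 (SE 0.30). CYTB was between 4805 and 11238 CPM (median 7456) and between 4314 and 8949 CPM (median 7469), with a log2 FC of 0.12 (SE 0.24). In these 3 genes the lowest and the highest pigs of the High MB group enclosed most or all of the Low MB group.

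For complex I, ND1 ranged from 2359 to 5979 CPM over the High MB pigs (median 3695) and from 2719 to 4648 over the Low MB pigs (median 4022), with a log2 FC of 0.01 (SE 0.22). ND2 was between 1949 and 6385 CPM (median 3241) and between 2152 and 5049 CPM (median 4011), with a log2 FC of -0.03 (SE 0.28). ND4 was between 3309 and 5963 CPM (median 4781) and between 3209 and 5810 CPM (median 4988), with a log2 FC of 0.02 (SE 0.20). ND1, ND2 and ND4 thus had the lower median in the High MB group and also their highest single pig there, High MB 5. ND5 was between 1951 and 5406 CPM (median 3172) and between 2620 and 4935 CPM (median 3355), with a log2 FC of -0.06 (SE 0.25, exact permutation p = 0.732). Without High MB 5 and Low MB 1 the ND5 log2 FC was -0.01 (SE 0.25). With standard errors of 0.18 to 0.30, differences of that size were not detectable in these libraries.

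The signs of these differences turned with the depth class. In the 7 standard libraries alone the log2 FC was positive for all 10 members, from 0.18 for ND5 to 0.62 for CYTB (SE 0.32, edgeR adjusted p = 0.789). In the 5 deep libraries alone it was negative for all 10, from -0.05 for COX1 to -0.99 for ND2 (SE 0.21, edgeR adjusted p = 0.999). The interaction of group and depth class, tested across all genes in one edgeR quasi-likelihood fit, had an unadjusted p under 0.05 for 7 of the 10 members, beside 1.44% of the 13373 genes, and an adjusted p under 0.10 for 0 of them. ND2 had the largest value, -1.62 (SE 0.45, unadjusted p = 0.00311, edgeR adjusted p = 0.99993). The members move together, so the 7 are not 7 separate results. With 2 deep High MB pigs, the depth class cannot be told apart from differences between these pigs.

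**Figure D4:**
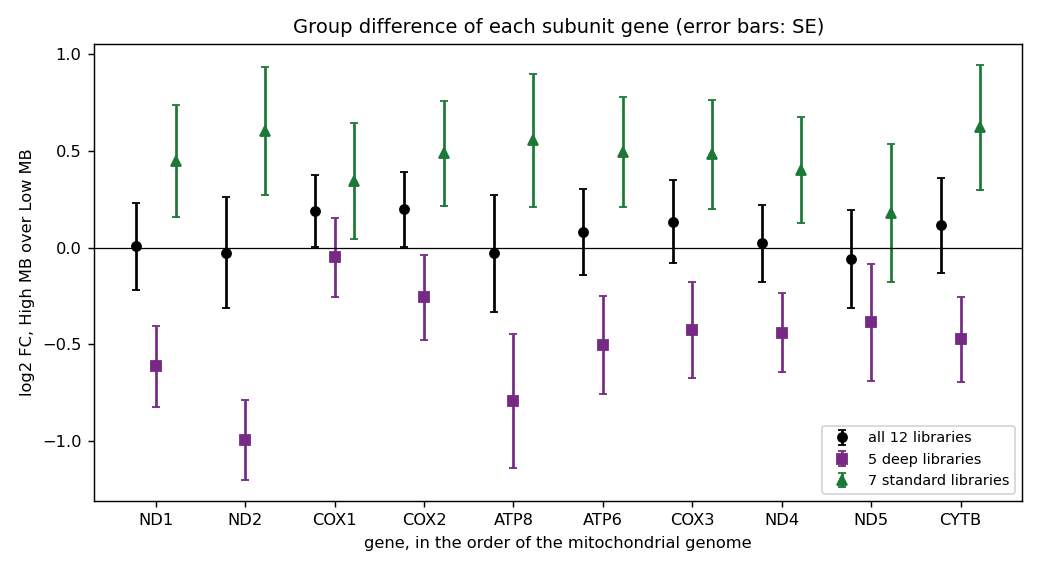
The log2 FC of High MB over Low MB (y axis) with its SE as error bar for each of the 10 genes in genome order (x axis), over all 12 libraries (black circles), in the 5 deep libraries (purple squares) and in the 7 standard libraries (green triangles). Values over all libraries lie between -0.06 and 0.20, those of the deep libraries below 0 for all 10 genes, and those of the standard libraries above 0 for all 10.

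Within the groups, the ATP6 level was set against the myoglobin content of the same muscle, which makes 2 relations. In the High MB group Pearson's r was 0.66 (n = 6, exact permutation p = 0.147, Benjamini-Hochberg adjusted 0.294) and Spearman's rho 0.43 (exact permutation p = 0.419, adjusted 0.564). In the Low MB group r was 0.13 (n = 6, exact permutation p = 0.749, adjusted 0.749) and rho 0.31 (exact permutation p = 0.564, adjusted 0.564). Without the 2 pigs farthest from the median myoglobin content r was 0.50 in the High MB group and -0.54 in the Low MB group. Neither relation passed the test, and the groups were not pooled because their myoglobin contents do not overlap. The depth classes hold 2 to 4 pigs of a group, too few for a value within a class.

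The nuclear subunits of the same complexes were compared next, since each complex is built from both sets. Of the nuclear subunits listed, 61 had a gene identifier in the name table, among them 28 of complex I, 4 of complex II, 7 of complex III, 11 of complex IV and 11 of the ATP synthase. Complex II is the one complex with no mitochondrially encoded subunit. By the same edgeR test 0 of the 61 were called. At an unadjusted p under 0.05 there were 2, a smaller share than the 8.46% of all genes tested, so their count is no result about the nuclear subunits. The 2 were COX4I1, a regulatory subunit of complex IV (log2 FC 0.28, SE 0.13, edgeR adjusted p = 0.578), and ATP5ME, a small subunit of the ATP synthase (log2 FC 0.39, SE 0.18, edgeR adjusted p = 0.578). The log2 FC was positive for 55 and negative for 6 of the 61, with a median of 0.09, beside -0.02 over all genes tested. By list, 24 of 28 were positive for complex I, 3 of 4 for complex II, 7 of 7 for complex III, 10 of 11 for complex IV and 11 of 11 for the ATP synthase. These signs come from the same pigs, so they are not separate results. Neither they nor the signs in the lists below were tested.

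The 61 nuclear subunits together took 1.20% ± 0.108 of all gene counts in the High MB group (SD, n = 6, from 1.12% to 1.39%) and 1.07% ± 0.173 in the Low MB group (SD, n = 6, from 0.788% to 1.26%). The 10 mitochondrial genes therefore gave several times the counts of the 61 nuclear ones. The ratio of the sums was 7.38 ± 1.24 in the High MB group and 7.36 ± 1.65 in the Low MB group (SD, n = 6 each). Within the depth classes the ratio went with the member share, at 8.09 ± 0.609 and 6.30 ± 0.769 in the standard libraries (n = 4 and 3) and 5.95 ± 0.673 and 8.41 ± 1.69 in the deep ones (n = 2 and 3). The nuclear share itself was higher in the High MB group in both classes, by 0.0900 and 0.154 percentage points (standard and deep). The ratio ran from 5.47 in High MB 6 to 10.1 in Low MB 6, and it was as variable between pigs of one group as over all. The pig with the highest ratio, Low MB 6, had the lowest nuclear share of all pigs (0.788%) and a member share in the middle of its group (7.98%).

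Genes that copy and transcribe the mitochondrial genome or process its RNA showed no called difference either. Of 13 replication and transcription genes 2 had a positive log2 FC, and the median was -0.08. POLRMT, the mitochondrial RNA polymerase, had a log2 FC of -0.17 (SE 0.09, edgeR adjusted p = 0.597), and TFB2M, its initiation factor, -0.26 (SE 0.14, edgeR adjusted p = 0.612). POLG, the DNA polymerase, and TWNK, the helicase, had log2 FC of -0.0019 and 0.0014. Of 20 genes of RNA processing and stability 7 had a positive log2 FC, with a median of -0.06. LRPPRC, which stabilises mitochondrial messengers, had -0.10 (SE 0.15), and GRSF1 and FASTKD2, RNA-binding proteins of the mitochondrial RNA granules, -0.15 (SE 0.10) and -0.16 (SE 0.12).

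The nuclear genes whose level followed the members most closely from pig to pig were found among 6138 genes with a symbol and a mean of at least 10 CPM, by Pearson's r with the mean log2 CPM of the 10 members over 12 pigs. NDUFB4, an accessory subunit of complex I, was first with r = 0.85 and 61.2 to 93.9 CPM. TECRL (0.79), AGBL5 (0.79), MYH6 (0.78), UBAC2 (0.77), GPD1L (0.76) and ZDHHC16 (0.75) were also among the highest. MYH6 is the alpha cardiac myosin heavy chain, and its count is uncertain, since the near-identical slow myosin gene MYH7 lies beside it. At the other end were GTF2F2, a general transcription factor subunit (-0.87), TSEN34 (-0.79), CNOT7 (-0.78) and the ribosomal protein gene RPS9 (-0.77). These are the extremes of 6138 values over 12 libraries that share their scaling, and they carry no test.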

How the data were processed

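The authors used Trim Galore to trim the paired reads, HISAT2 to align them to Sscrofa11.1, and HTSeq for counting. They deposited raw counts per gene and per transcript for each pig, without normalization. Tool versions, the annotation release, the strand setting and the rule for reads over overlapping genes are not given in the sources used here. The HTSeq summary has a line of its own for ambiguous reads, which could be given to more than 1 gene. They were 0.802% to 1.13% of uniquely aligned reads. HTSeq summary lines were kept out of gene totals and tests.

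The members were matched by symbol through an Ensembl name table, and each had 1 transcript with the same count in all 12 pigs. The members and lists were chosen with earlier results of these data known. The named genes were the members, the other mitochondrial genes, in each nuclear list the 2 of highest mean CPM and the 2 of lowest unadjusted p (those described in the text are a selection), and the 8 most and 4 least alike nuclear genes, of which 1 is not reported here. Counts were tested in edgeR 4.0.16 (R 4.3.3) with TMM, filterByExpr and the quasi-likelihood test, with no covariate. DESeq2 1.42.0, the study's tool, was an alternative. Log2 CPM used a prior count of 2. Each SE of an edgeR log2 FC is its absolute value divided by the square root of the F value of the test. The edgeR test was also run on simulated counts with fold changes of 2 and 4, and DESeq2 was not. The exact permutation test was checked on values with known answers. Groups came from the labels, and depth classes from the total reads given by the study. The 95% Wilson intervals cover counting error only. Nuclear copies were found with BLAST 2.17.0. No 2 libraries agreed within counting noise over the 13 mitochondrial protein genes, so none was treated as a repeat of the same library. Separate libraries of 1 pig could also differ by more than counting noise. Ribosomal and transfer RNA genes, whose identifiers carry no symbol in the name table, were not analysed here. Gene counts per pig, from 38914271 to 91318334, set the depth.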

Additional observations from a re-analysis of the deposited data

Results flagged for a closer look

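Of 54 groups of 6 pigs examined for a single pig far from the rest of its group, 4 held one, where the gap to the nearest pig divided by the range of the group was above Dixon's critical value. Chance flags about 1 in 20 groups, so a few would be expected among 54. In the High MB group, ND5 made up 1.77% of the counts of the 10 genes in High MB 5, against 4.04% to 4.87% in the other 5 pigs. ND6 of the same pig stood at 0.565%, against 1.38% to 1.86%. ND1 of that pig was high, at 5.43%, against 3.92% to 4.30%. In the Low MB group, COX2 made up 9.28% in Low MB 6, against 10.6% to 11.0% in the other 5 pigs. Low MB 1, the other pig with low ND5, did not pass the limit, with a gap of 0.584 of the range for ND5 and of 0.503 for ND6. On the CPM scale High MB 5 was not apart, with a gap of 0.139 of the range for ND5.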

How the results depend on the processing

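0 members and 0 nuclear subunits were called under every alternative run. Over all genes DESeq2 called 29 (0.151% of 19158), and the deep libraries alone gave 1. The fits within a depth class, the values by complex within a depth class and the fits without High MB 5 and Low MB 1 were added after seeing the data. The difference in share was -1.30 percentage points in the deep libraries, and 0.724 to 1.76 with each pig left out. The ATP6 relation with myoglobin in the Low MB group turned to r = -0.54 without the 2 farthest pigs. The sign of the log2 FC turned as follows, and the cause was not tested. In the deep libraries it was -0.61 for ND1, -0.050 for COX1, -0.26 for COX2, -0.50 for ATP6, -0.43 for COX3, -0.81 for ND3, -0.55 for ND4L, -0.44 for ND4 and -0.47 for CYTB. In the standard libraries it was 0.60 for ND2, 0.55 for ATP8 and 0.18 for ND5. With upper quartile scaling it was 0.021 for ND2 and 0.022 for ATP8. Without High MB 5 and Low MB 1 it was -0.11 for ND1, -0.0013 for ND4L and -0.032 for ND4. ND1 was -0.0027 with the depth class as a covariate and -0.031 with the individual number as a replicate block. With each pig left out, the log2 FC ran from -0.17 to 0.11 for ND1, -0.26 to 0.10 for ND2, 0.07 to 0.28 for COX1, 0.08 to 0.28 for COX2, -0.26 to 0.14 for ATP8, -0.035 to 0.20 for ATP6, 0.02 to 0.25 for COX3, -0.075 to 0.26 for ND3, -0.069 to 0.15 for ND4L, -0.059 to 0.12 for ND4, -0.24 to 0.059 for ND5, -0.33 to -0.08 for ND6 and -0.043 to 0.23 for CYTB. Equal numbers did not pair the pigs, with correlations of deviations from -0.21 to 0.14. No High MB pig correlated best with the Low MB pig of its own number. The replicate block called 0 genes and left 957 at an unadjusted p under 0.05, beside 1132 without it.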
